A study of Caenorhabditis elegans with 2 samples.

Results

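Candidate ChIP-seq regions of DMD-4, a transcription factor of the DM-domain family, were examined at the nuclear tRNA genes of Caenorhabditis elegans. A region was taken when its summit lay within 500 bp of a tRNA gene of the Ensembl annotation, and 440 of the 30000 candidate regions that the authors called on both replicates pooled met this rule (29988 of the 30000 were nuclear). The list holds background regions as well as peaks, so a candidate is not by itself a bound site. The choice used position only, so the signal of the regions was free to vary. The regions came from chromatin immunoprecipitation and sequencing (ChIP-seq) with an anti-GFP antibody on whole hermaphrodite late embryos of strain OP418, genotype unc-119(tm4063) III; wgIs418, collected 5 h after synchronization by egg bleaching. The strain carries a stable transgene that makes DMD-4 with a GFP-FLAG tag at its C terminus, besides the animals' own dmd-4 gene. The samples were 2 biological replicates of this 1 group, with no other genotype, stage or antibody, so the values below describe this group, and no test across samples was possible. Whole embryos hold many cell types, so a weak region present in many cells and a strong one in few cannot be told apart.

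Transfer RNA genes are short and are transcribed by RNA polymerase III. Their promoter lies inside the gene and has 2 elements, the A box and the B box, which are bound by the general factor TFIIIC, and the B box letters also encode the T loop of the tRNA. Animal genomes keep many identical copies of a tRNA gene, and in C. elegans many of them lie on chromosome X or inside introns of other genes. DM-domain proteins, named after Doublesex and MAB-3, are zinc-binding transcription factors known mainly for roles in sexual development and in neurons.

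The strongest member is shown first, because it stood apart from all the others in both replicates. It covered the only copy of a tRNA-Leu gene, C04A11.t1 (ce11 X:13665555-13665673, + strand, 119 bp, outside protein-coding genes). The region X:13665434-13665724 is printed on the + strand, with the tRNA gene in capitals. All sequences are from the RefSeq copy of WBcel235, the same assembly as ce11.
C04A11.t1 region: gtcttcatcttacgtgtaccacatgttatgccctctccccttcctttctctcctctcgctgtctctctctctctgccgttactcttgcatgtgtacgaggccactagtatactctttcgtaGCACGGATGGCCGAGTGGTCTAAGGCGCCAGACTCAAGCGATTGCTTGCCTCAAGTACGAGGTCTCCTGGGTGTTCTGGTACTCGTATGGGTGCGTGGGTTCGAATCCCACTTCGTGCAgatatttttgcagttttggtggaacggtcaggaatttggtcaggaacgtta

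A pair of families is shown because their genes are identical inside and differ in signal. The larger holds 24 tRNA-Pro genes that read the same over 72 bp. Capitals mark the B box, searched as GTTCNANNC, where N is any base. The 50 bases before the gene are given in lower case for the strongest copy (T23F1.t2, V:15465225-15465296, - strand), the weakest copy with a candidate of its own (ZK678.t3, X:15751420-15751491, + strand) and a copy with no candidate within 500 bp (C16B8.t1, X:3969556-3969627, + strand).
tRNA-Pro gene: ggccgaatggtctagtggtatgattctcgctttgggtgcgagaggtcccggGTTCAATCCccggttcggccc
T23F1.t2 upstream: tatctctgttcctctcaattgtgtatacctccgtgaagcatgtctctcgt
ZK678.t3 upstream: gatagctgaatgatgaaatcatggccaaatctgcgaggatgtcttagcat
C16B8.t1 upstream: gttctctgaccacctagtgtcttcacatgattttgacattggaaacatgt

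The other family holds 10 tRNA-Arg genes of 73 bp, all on X, with the same marking. Its strongest copy was T06H11.t2 (X:10132678-10132750, + strand, in an intron of unc-58, a potassium channel gene), the weakest with a candidate C14F11.t1 (X:6220070-6220142, - strand) and a copy with none F12D9.t4 (X:8640794-8640866, - strand).
tRNA-Arg gene: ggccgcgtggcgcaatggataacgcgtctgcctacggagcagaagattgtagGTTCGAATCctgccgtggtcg
T06H11.t2 upstream: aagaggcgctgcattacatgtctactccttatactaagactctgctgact
C14F11.t1 upstream: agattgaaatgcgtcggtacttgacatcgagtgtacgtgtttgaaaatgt
F12D9.t4 upstream: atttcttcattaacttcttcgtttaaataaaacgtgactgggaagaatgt

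The values are the authors' signal values, in arbitrary units relative to control libraries, and can be compared within a list but not as levels between lists. Depth is unknown, since the lists hold no read counts. The list of reproducible regions, which the authors kept by the irreproducible discovery rate (a procedure that weighs how alike replicates rank the same regions), was the top 652 of the pooled list, down to a signal of 106.4. A count of reproducible regions is therefore a count of regions above that signal. Each list ended at 30000 regions, at a signal of 29.4 in the pooled list, 14.9 in replicate 1 and 16.6 in replicate 2, and a region not listed in a replicate was ranked below all that were. Intervals in parentheses are exact 95% Clopper-Pearson intervals, which allow for counting error in the number of regions and for nothing else, because regions do not replicate the samples.

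Candidates at tRNA genes were stronger than candidates elsewhere, and more of them were reproducible. The median pooled signal of the 440 regions was 64.2, against 41.0 for the other 29548 nuclear candidates, and the 90th percentile was 181 against 66.6. In replicate 1 the medians were 36.3 and 20.9, and in replicate 2 they were 39.9 and 24.0, so both replicates gave the same order. In all, 108 of the 440 were reproducible (24.5%, 20.6 to 28.8), where 2.14% of all nuclear candidates were. A q of at most 0.05 was reached by 96 members (21.8%, 18.0 to 26.0), against 1.66% of nuclear candidates. The regions matched the strongest 652 of both replicates in 117 cases (26.6%, 22.5 to 31.0), against 1.93%. Of the 117, 27 were outside the reproducible list. Some of those 27 shared the replicate regions of a stronger overlapping member, as a second region at C04A11.t1 did (88.7 pooled).

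The members ranged from 29.5 to 521.6 and did not include every tRNA gene. Of 612 nuclear tRNA genes, 414 had a candidate within 500 bp and 198 had none. The 440 regions had 369 different nearest genes, 71 of them nearest to 2 regions, so 142 regions shared their nearest gene with another. At 69 regions a further tRNA gene also lay within 500 bp, and there the signal cannot be assigned to a single gene.

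Signal fell with distance from the gene. Of 119 regions with the summit inside a tRNA gene, 61 were reproducible (51.3%, 41.9 to 60.5) and their median signal was 114.9. Of 188 with the summit 1 to 100 bp away, 44 were reproducible (23.4%, 17.6 to 30.1) and the median was 73.5. Beyond 100 bp and up to 500 bp, 3 of 133 were (2.26%, 0.468 to 6.45) and the median was 42.0, close to that of candidates elsewhere. The same order held in the replicates, with medians of 55.0, 37.7 and 26.3 in replicate 1 and of 59.6, 42.7 and 28.2 in replicate 2.

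All 4 regions nearest to the limit of 500 bp were outside the reproducible list. Just inside it were regions at 490 bp from Y59A8B.t3 (signal 56.0) and at 489 bp from W05B2.t1 (89.5). Just outside it were regions at 508 bp from Y38E10A.t1 (48.5) and at 516 bp from F27D4.t1 (48.0).

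**Figure D1:**
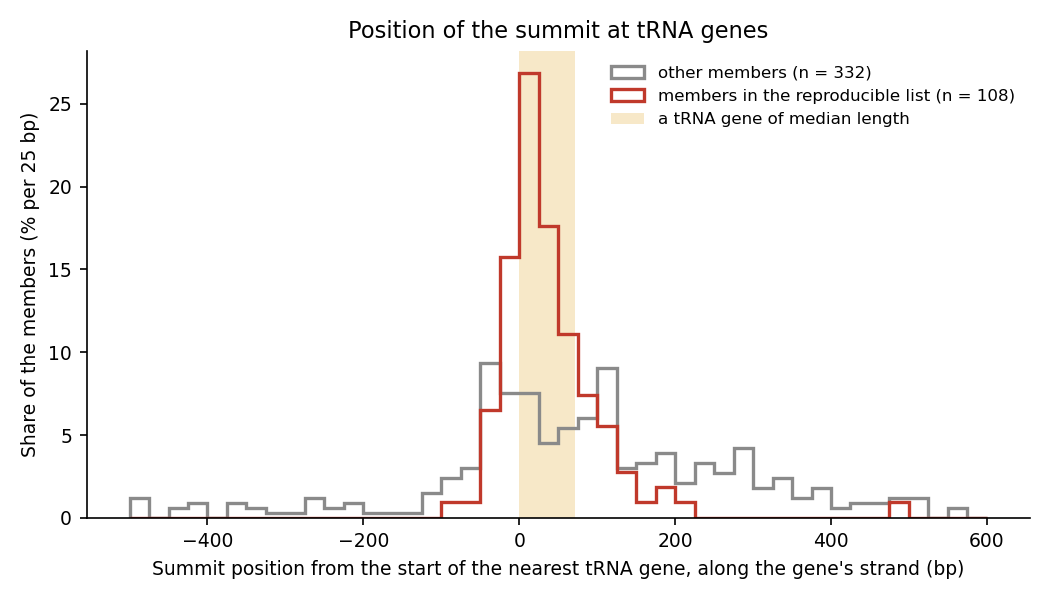
Histogram of the distance from the start of the nearest tRNA gene to the summit, in bp along the gene's strand, as a share of 108 reproducible and of 332 other members in bins of 25 bp; the shaded band is a gene of the median length of 72 bp. Reproducible summits gather over the gene, with a median of 17.5 bp after its start, and the others spread out, with a median of 76.5 bp.

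Since 587 of the 612 tRNA genes (95.9%) hold the B box letters and members were chosen for lying near these genes, the share of members with the letters near the summit follows from the choice and from the distance of the summit. It is given as a description. GTTCNANNC, searched on both strands, occurred within 100 bp of the summit at 93 of 108 reproducible members (86.1%, 78.1 to 92.0) and at 176 of the 332 others (53.0%, 47.5 to 58.5). It occurred at 7.90% of all nuclear candidates and at 46 of 535 reproducible regions away from tRNA genes (8.60%). Across the tRNA genes themselves the letters were common with and without a candidate. They were in 119 of 125 genes with a reproducible region within 500 bp (95.2%) and in 186 of 198 genes with no candidate (93.9%). GC content within 100 bp of the summit had a median of 47.5% at reproducible and 42.5% at other members, and its part in the signal was not tested.

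The 12 strongest loci had signals from 281.8 to 521.6, and 9 of them were on X. In 8 of the 12 the summit lay inside the tRNA gene, and 6 were in introns of protein-coding genes. C04A11.t1, the tRNA-Leu gene printed above, had a pooled signal of 521.6, with 240.8 in replicate 1 and 277.8 in replicate 2, and it was the only single-copy gene of the 12. The next was F38G1.t2, a tRNA-Asp gene (X:489868-489939) which lies in an intron of the fibroblast growth factor gene egl-17 on the opposite strand, with 366.1 pooled, 178 in replicate 1 and 186 in replicate 2. The tRNA-Lys gene W03G11.t1 (X:12106147-12106219), 112555 bp from the next tRNA gene, had 342.9, 165 and 181.

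F15G9.t1, a tRNA-Ala gene (X:9743589-9743660) in an intron of him-4, which encodes the extracellular matrix protein hemicentin, had 329.2 pooled, 132 in replicate 1 and 192 in replicate 2. It was the strongest member at a clustered gene, with another tRNA gene 87 bp away. The strongest autosomal member was at T21B4.t1, a tRNA-Ile gene (II:12494741-12494814) in an intron of the collagen gene col-85, with 300.3 pooled, 143 and 154. C37A2.t1, a tRNA-Cys gene in an intron of the cyclin E gene cye-1 (I:6781803-6781874), had 297.9, 124 and 178.

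The remaining 6 lay close together, from 281.8 to 300.2, and their order within a replicate differed from the pooled order. M02F4.t1 (tRNA-Gly, X) had 300.2 pooled, with 174 in replicate 1 and 131 in replicate 2, while C42D8.t1 (tRNA-Ile, X) had 298.7 with 125 and 177. F41D9.t3 (tRNA-Asn, X, in sulp-3) had 289.5 with 173 and 122. C53C7.t2 (tRNA-Ser, X) had 293.8, T23F1.t2 (tRNA-Pro, V) 284.4 and C02B4.t2 (tRNA-Tyr, X, in the nuclear hormone receptor gene nhr-17) 281.8.

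Members at clustered and at isolated tRNA genes had close medians. A gene was called clustered when another tRNA gene lay within 1000 bp, as for 236 of the 612 genes. The 123 members at clustered genes had a median of 62.8 and the 317 at isolated genes one of 65.1. The ratio of these medians was 0.965 pooled, 0.976 in replicate 1 and 0.963 in replicate 2, a mean of 0.969 ± 0.00912 (SD, n = 2 replicates). Of the clustered members 26 were reproducible (21.1%, 14.3 to 29.4), and of the isolated 82 (25.9%, 21.1 to 31.1), and the intervals overlap. Counting only the strongest region of each gene gave a ratio of 0.864, and only summits within 100 bp gave 0.834.

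Members in introns had a slightly lower median than those outside protein-coding genes. The 231 members at intronic tRNA genes had a median of 59.4 and the 201 outside genes one of 67.1. The ratio was 0.886 pooled, 0.966 in replicate 1 and 0.851 in replicate 2, or 0.909 ± 0.0811 (SD, n = 2 replicates), so its distance from 1 was about that of the spread between the replicates. Reproducible were 52 (22.5%, 17.3 to 28.4) and 54 (26.9%, 20.9 to 33.6). With summits within 100 bp only, the ratio was 1.02, on the other side of 1.

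Intronic members on either strand of the host gene had reproducible shares with overlapping intervals. On the same strand as the host 27 of 133 were reproducible (20.3%, 13.8 to 28.1), with a median of 57.3. On the opposite strand 25 of 98 were (25.5%, 17.2 to 35.3), with a median of 63.6. The other 8 members were at tRNA genes that overlap an exon or the edge of a protein-coding gene, 2 of them reproducible, and the strongest of these was at C28G1.t1, a tRNA-Glu gene on X (272.9 pooled, 133 and 135).

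The medians did not follow copy number in order. Members at genes whose sequence occurs once had a median of 58.8 (n = 91), those with 2 to 5 copies 75.6 (n = 55), those with 6 to 10 copies 62.3 (n = 83) and those with over 10 copies 69.3 (n = 211). Reproducible were 19.8% (12.2 to 29.4), 32.7% (20.7 to 46.7), 22.9% (14.4 to 33.4) and 25.1% (19.4 to 31.5), with overlapping intervals. The ratio of the first to the last median was 0.848 pooled, 0.920 in replicate 1 and 0.836 in replicate 2, a mean of 0.878 ± 0.0596 (SD, n = 2 replicates). How reads that match several copies were placed is not given in the sources used here, and this bears on every value at a gene with copies. After C04A11.t1, the strongest single-copy genes were F57F5.t1 (tRNA-Ile, V, 238.9 pooled, 100.2 in replicate 1 and 141 in replicate 2) and K09A11.t1 (tRNA-Tyr, X, 197.2, 88.6 and 106).

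**Figure D2:**
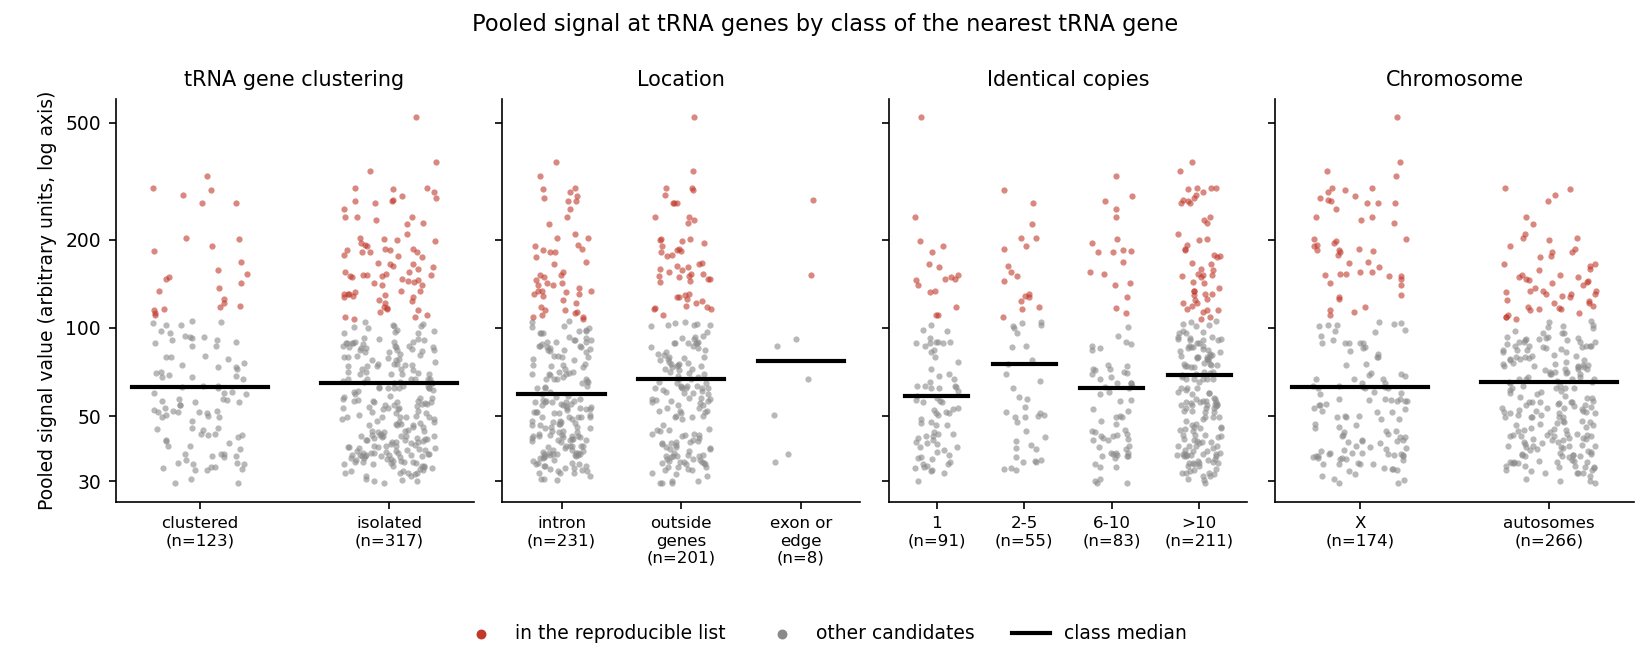
Pooled signal value (arbitrary units, log axis) of the 440 members in 4 groupings of their nearest tRNA gene; each point is a region, red where reproducible, and bars are class medians. The medians lie between 58.8 and 76.9 in all classes, and the points of each class overlap with those of every other class.

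Members on X and on autosomes had close medians, and X was higher in the upper tail. The 174 members on X had a median of 63.1 and the 266 on autosomes one of 65.2, a ratio of 0.967 pooled, 0.977 in replicate 1 and 1.13 in replicate 2, or 1.05 ± 0.107 (SD, n = 2 replicates), which spans 1. With summits within 100 bp only, the ratio was 1.25. The 90th percentile was 238 on X and 145 on the autosomes, a ratio of 1.64. It was 131 against 76.6 in replicate 1 (ratio 1.71) and 135 against 86.6 in replicate 2 (1.56). For the other nuclear candidates the same ratio was 1.06 pooled and 1.05 in each replicate. Their 90th percentiles lay at a lower signal, 69.9 on X and 66.1 on autosomes pooled. Nearer to the members' level, the 0.99 quantile of their pooled signal was 126 on X and 127 on autosomes.

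The tail was on X in each replicate list. Of the 25 strongest members 20 were on X (80%), of the strongest 50 there were 34 (68%) and of the strongest 100 there were 49 (49%), where X held 174 of all 440 members (39.5%) and 276 of the 612 genes (45.1%). Ranked by replicate 1 the counts were 19, 32 and 49, and by replicate 2 they were 19, 33 and 49. By chromosome, 29.9% of the members on X were reproducible (23.2 to 37.3) and 21.1% of those on autosomes (16.3 to 26.4), and the intervals overlap. Among the autosomes the share ran from 15.7% on I to 29.1% on III. By gene, a reproducible region lay within 500 bp of 63 of 276 genes on X (22.8%). This share was higher on II (26.3%) and III (31.25%) and lowest on I (10.6%).

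The excess on X in the tail appeared in most classes but with different sizes. Outside protein-coding genes, 34 of 101 members on X were reproducible (33.7%, 24.6 to 43.8) against 20 of 100 on autosomes (20%, 12.7 to 29.2), with overlapping intervals. The 90th percentiles there were 228 and 145. In introns the shares were 23.6% and 22.0%, and the 90th percentiles 239 and 145. At isolated genes the 90th percentiles were 239 and 149, at genes with over 10 copies 267 and 149, and at single-copy genes 161 and 147. At single-copy genes the reproducible share was lower on X, 6 of 33 (18.2%, 6.98 to 35.5) against 12 of 58 (20.7%, 11.2 to 33.4), with overlapping intervals. X also holds relatively more clustered genes (135 of 276, against 101 of 336 on autosomes) and fewer intronic ones (95 against 188).

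Part of the tail lay in narrow regions. Of the 440 members 425 were 450 bp wide, and 15 were under 300 bp, from 112 bp, with signals from 164.8 to 521.6. All 15 were reproducible and 14 of them were on X, while 4 of the 52 narrow reproducible regions away from tRNA genes were on X. At any width, X held 52 of the 108 reproducible members and 92 of the 535 reproducible regions away from tRNA genes. Among the members 450 bp wide, 56% of the strongest 50 were on X and the ratio of 90th percentiles was 1.26. Leaving out strong regions that were nearly all on X lowers both values, whatever the width means. The width is set by the authors' caller, and its part in the result was not tested.

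**Figure D3:**
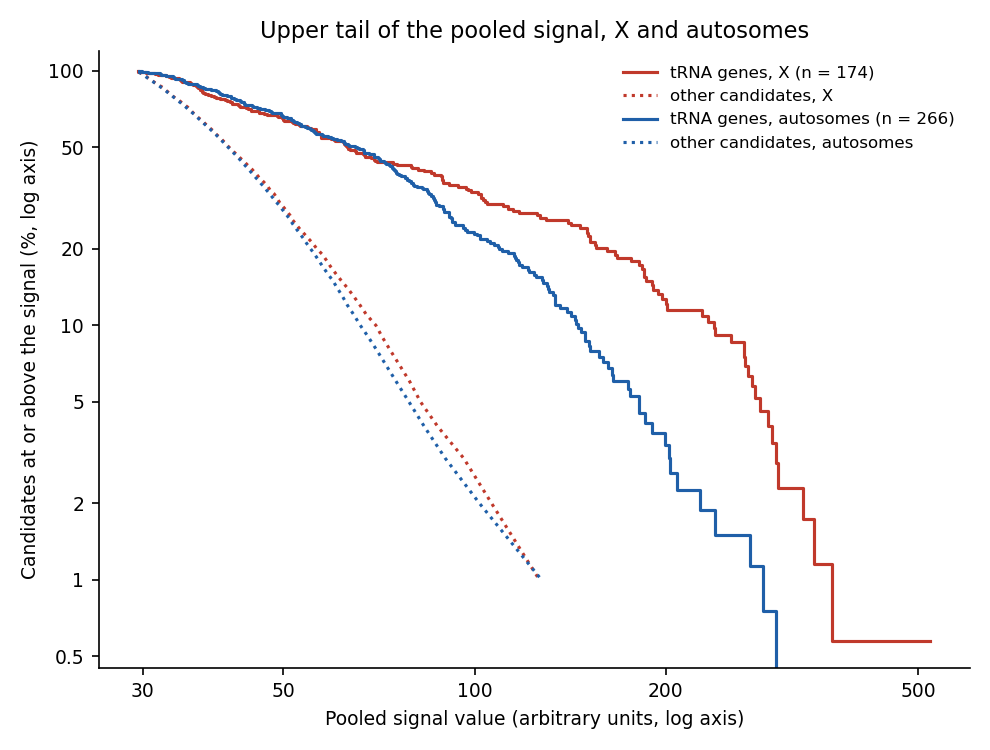
Share of candidates (%, log axis) at or above a pooled signal value (arbitrary units, log axis), for members on X (red) and autosomes (blue) and for the other nuclear candidates (dotted). The member curves run together up to a signal of about 75 and separate above it, so that the 90th percentile is 238 on X and 145 on the autosomes, while the dotted curves nearly coincide.

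Identical genes differed widely in signal. The 612 genes have 200 different sequences, and 20 families of 10 or more identical genes hold 317 of the genes. For each gene the strongest region that had it as the nearest gene was taken. All 20 families had at least 1 gene with a reproducible region, in none did all genes have one, and in all 20 at least 1 gene had no region of its own. Such a gene can still have a candidate within 500 bp that was assigned to another tRNA gene, as at M02F4.t2 (300.2) and F49D11.t1 (86.5). The share of a family's genes with a reproducible region ran from 6.67% to 36.4%, where 107 of all 612 genes were nearest to one. Whether the families depart from that share was not tested. Within families the strongest listed gene exceeded the weakest by 3.52-fold to 10.6-fold, and genes with no region of their own are not in this range. The weakest listed signals were 29.7 to 45.7, near the end of the pooled list at 29.4, so these folds depend on where the list ends. They also depend on how reads that match several copies were placed, which is not known.

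The 4 largest families were tRNA-Gly (29 genes), tRNA-Lys (25), tRNA-Pro (24) and tRNA-Asp (21). In the tRNA-Gly family 15 genes had a region of their own and 6 a reproducible one, from 39.4 at C12C8.t4 to 300.2 at M02F4.t1. At both of these regions a further tRNA gene lay within 500 bp, so the signal cannot be assigned to a single gene. In the tRNA-Lys family 18 had a region and 7 a reproducible one, from 34.4 at F39B1.t2 to 342.9 at W03G11.t1. In the tRNA-Asp family 14 had a region and 6 a reproducible one, from 34.7 at K03H6.t1 to 366.1 at F38G1.t2.

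The tRNA-Pro family, whose sequence is printed above, had 10 genes with a region and 4 with a reproducible one. T23F1.t2 had 284.4 pooled, with 124 in replicate 1 and 161 in replicate 2, and lies 67 bp from another tRNA gene. ZK678.t3, in an intron of srxa-9, had 31.4 pooled and 17.7 in replicate 1, and was not listed in replicate 2. C16B8.t1 had no candidate within 500 bp. The next tRNA gene, C16B8.t2, lies 469 bp from C16B8.t1. It had a reproducible region of 190.3 with its summit at X:3970194, just beyond the 500 bp limit from C16B8.t1. The region of T23F1.t2 has a further tRNA gene within 500 bp, so its signal cannot be assigned to the tRNA-Pro copy alone. A copy with no other tRNA gene nearby, ZK899.t1 on X, had 184.5 pooled, with 90.9 in replicate 1 and 97.4 in replicate 2. ZK899.t1, ZK678.t3 and C16B8.t1 thus ran from the reproducible list to no candidate within 500 bp with the same gene sequence, including the B box. Whether the bases before the gene bear on this was not tested.

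In the tRNA-Arg family found on X, 7 of 10 genes had a region and 1 a reproducible one. T06H11.t2 had 167.6 pooled, with 79.8 in replicate 1 and 96.5 in replicate 2. C14F11.t1 had 29.7 pooled and 17.2 in replicate 1 and was not listed in replicate 2, and F12D9.t4 had none. T06H11.t3, 221 bp from T06H11.t2, had a weaker region of 56.9 that overlaps the stronger one, so these signals are not separate measurements.

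The tRNA-Trp family of 10 genes includes genes known from amber suppressor mutations, such as sup-5 and sup-7. Their values show the range within a named family. The gene sup-5, in an intron of the flightless homologue fli-1 (III:8678497-8678568), had 271.5 pooled, with 144 in replicate 1 and 125 in replicate 2. The gene sup-7 on X had 140.3, with 68.9 and 72.8. Both were reproducible. The other suppressor genes were weaker, with sup-29 at 64.7, sup-24 at 60.6, sup-28 at 43.6 and sup-33 at 30.6, and sup-21 had no candidate within 500 bp.

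**Figure D4:**
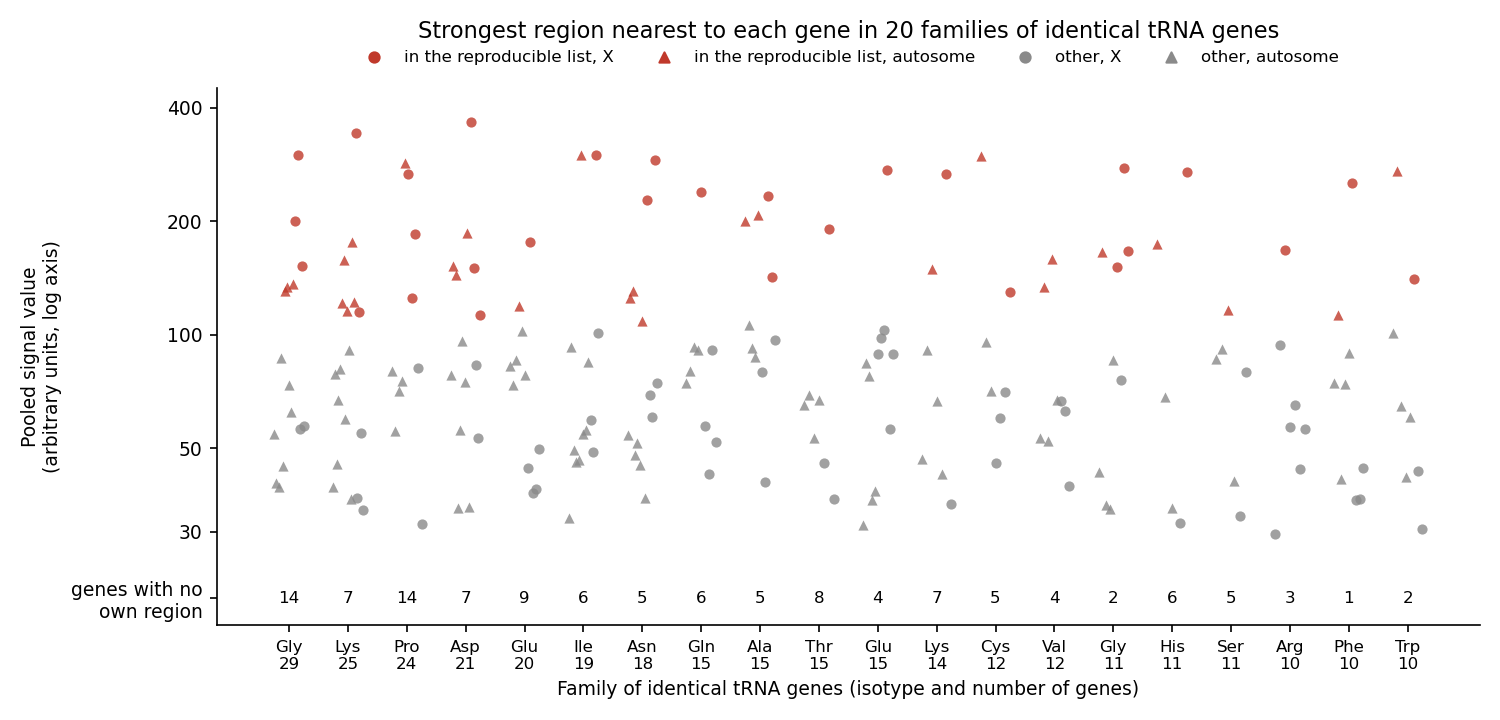
Pooled signal value (arbitrary units, log axis) of the strongest region nearest to each gene in the 20 families of 10 or more identical tRNA genes; circles are genes on X, triangles autosomal genes, red marks the reproducible list, and the numbers at the foot count genes with no region of their own. Each family spreads from weak to strong, by 3.52-fold in a tRNA-Ser family up to 10.6-fold in the tRNA-Asp family. The weakest lie near the end of the pooled list, at a signal of 29.4. Genes with no region of their own can still lie within 500 bp of a region assigned to another gene.

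Over their whole range the members ranked alike in the replicates. Within narrow bands of pooled rank the agreement in rank was lower, which the cut into bands by itself brings about in part. Of the 440 members, 375 were in both replicate lists, 40 were not listed in replicate 1 and 27 not in replicate 2, 2 of them in neither. Over the 375, Spearman's rho between the replicates was 0.82, given as a description, since the regions share libraries and control. The strongest 652 of both replicates held 90 of the 108 reproducible members (83.3%, 74.9 to 89.8) and 346 of the 535 other nuclear reproducible regions (64.7%, 60.5 to 68.7). Members were also stronger than those others, so the same shares are given by rank in the pooled list.

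Within bands of pooled rank the shares were closer. All 26 members and all 66 others of ranks 1 to 100 were in both tops. Beyond rank 100 and up to rank 300 these were 45 of 46 members (97.8%) and 147 of 154 others (95.5%), and beyond rank 300 they were 19 of 36 (52.8%, 35.5 to 69.6) and 133 of 315 (42.2%, 36.7 to 47.9). The intervals overlap in each band. Spearman's rho within the bands was 0.15, -0.09 and -0.18 for members and 0.70, 0.11 and -0.24 for the others, in the same order. The bands were cut on the pooled signal, which comes from the same replicates, and such a cut by itself pulls rho down. In ranks 1 to 100 the median difference between replicate ranks was 27 for members and 15 for the others. The median fold between the replicates' signals was 1.20 at reproducible members and 1.26 at the others. By band, in the same order, it was 1.21, 1.20 and 1.18 for members and 1.14, 1.26 and 1.30 for the others. The fold also holds any difference in level between the lists. The signal was higher in replicate 2 at 75 of the 108 reproducible members and at 419 of the 535 others.

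Some replicate values were counted more than once. A member was matched to the strongest replicate region that overlapped it by at least 1 bp, and 152 members shared their replicate 1 region with another member, 150 their replicate 2 region, since pooled candidates can overlap each other. Among reproducible members 38 did so in each replicate. With only the strongest region of each gene the share in both tops was 83.2%, and with summits within 100 bp of each other it was 78.7%.

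A few reproducible members ranked far apart in the replicates. F14B4.t1, a tRNA-Arg gene on I, ranked 1940 in replicate 1 and 383 in replicate 2, with signals of 37.2 and 72.8. K09C8.t1, a tRNA-Gly gene on X, ranked 119 and 1099 (100.1 and 50.6), and C48C5.t1, a tRNA-Pro gene on X, ranked 223 and 1181 (73.9 and 49.5). These 3 had the largest rank differences, with pooled signals of 109.1, 152.0 and 125.3.

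**Figure D5:**
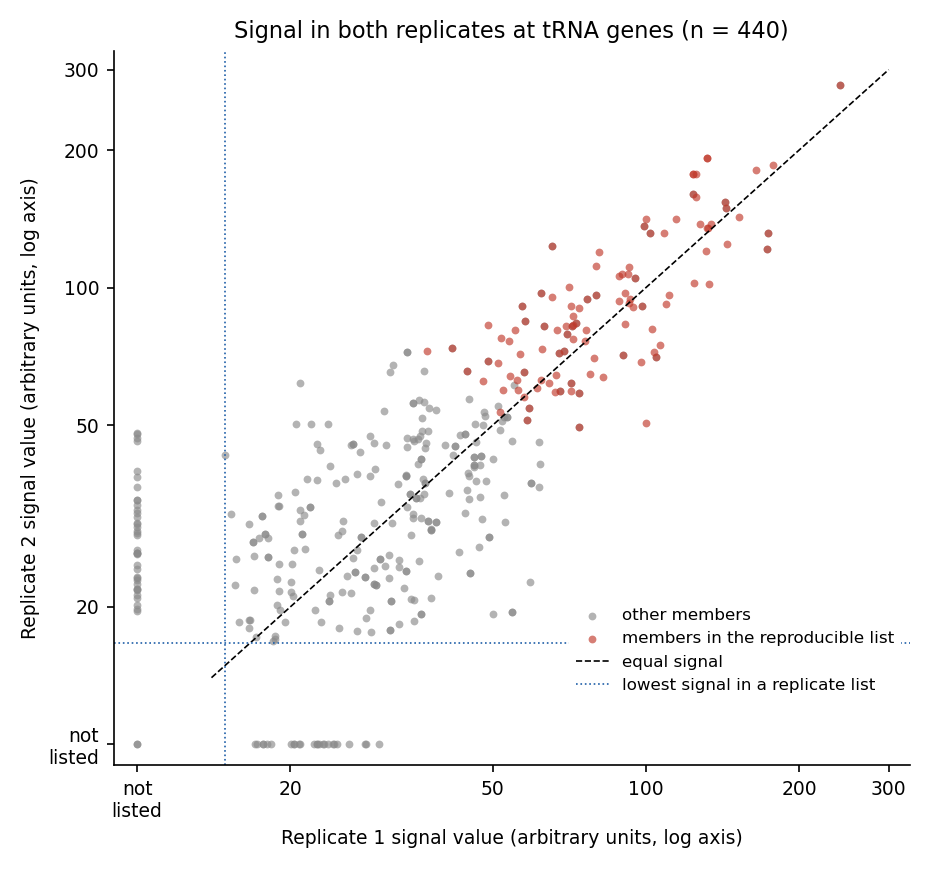
Signal value in replicate 1 against replicate 2 (arbitrary units, log axes) for the 440 members, red where reproducible; members not listed in a replicate are drawn at the foot or left edge, and dotted lines mark the lowest listed signals, 14.9 and 16.6. The red points lie along the line of equal signal, with 75 of the 108 higher in replicate 2. The line is only a guide, since levels cannot be compared between lists. The 65 members missing from a list are all outside the reproducible list.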

How the data were processed

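ChIP-seq of DMD-4-GFP was deposited as ranked region lists for 2 replicates, for both pooled, and for the reproducible set. The ce11 lists were used, and the ce10 and control lists were not used here. The signal value of each region is as deposited by the authors, set by their caller relative to controls, and the significance is a deposited -log10 q. The aligner, the caller, their versions, the cut for reproducibility and the treatment of reads that match several sites were among the details not given in the sources used here. Read depth is unknown.

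Summits were set against tRNA genes of Ensembl release 115 for WBcel235, with isotypes from RefSeq for 607 of 612 genes. A member belongs to its nearest gene. Intronic genes lie inside a protein-coding gene and overlap no coding-transcript exon, and copies are genes of identical sequence. Replicate regions were matched by an overlap of at least 1 bp. The members, classes and naming rule were chosen with earlier results of these data known. The rule named the 12 strongest loci, the strongest 3 regions of each class, the 4 largest families, the 3 largest rank differences and the regions beside the 500 bp limit. The tRNA-Arg and tRNA-Trp families, the analysis of the upper tail on X and that of narrow regions were added after the values were seen. No p-value was computed, since there was 1 group of 2 replicates. Alternatives were another distance, gap, copy definition, matching rule and each replicate alone. The assignment, matching and copy counts were tested on simulated data. Python 3.11.15, pandas 2.3.3, numpy 2.4.6 and scipy 1.17.1 were used.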

Additional observations from a re-analysis of the deposited data

How the results depend on the processing

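Of 46 alternatives computed, 31 left the value within its replicate spread or interval and 15 moved it. These counts do not measure robustness. For the ratios of medians, each replicate alone is among the alternatives and also sets the spread. That spread was 0.00912 for clustering and 0.107 for X over autosomes, so a like move can count differently. The reproducible share of 24.5% became 34.2% with summits within 100 bp and 29.0% with the strongest region of each gene, and it was 30% to 34.3% where the top 652 of 1 replicate took the list's place. With summits within 100 bp, the ratio of medians was 0.834 for clustered over isolated, 1.02 for intron over outside, 0.940 for 1 over more than 10 copies and 1.25 for X over autosomes. The clustering ratio was 0.864 with the strongest region of each gene and 0.826 with a gap of 5000 bp. In the replicates taken alone these ratios ran from 0.963 to 0.976, from 0.851 to 0.966, from 0.836 to 0.920 and from 0.977 to 1.13, in the same order. Counted by gene, the ratio of the shares with a reproducible region, X over autosomes, was 1.24, although chromosomes II and III had higher shares than X. The cause of these moves was not tested, beyond the smaller set that the 100 bp limit leaves. The share in the top of both replicates stayed between 78.7% and 83.8%. Of settings chosen after seeing the data, the share of the strongest 50 on X was 56% to 68% and the ratio of 90th percentiles 1.56 to 1.71, except 1.26 among members 450 bp wide. Precision is limited by 2 replicates, by unknown depth and by lists that end at 30000 regions. No paired analysis was possible because there was 1 group.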

Other observations

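Every tRNA isotype with a candidate had at least 2 reproducible members. The share was highest at tRNA-Ala genes, 8 of 23 members (34.8%, 16.4 to 57.3), and tRNA-Cys genes, 3 of 9 (33.3%, 7.49 to 70.1), and lowest at tRNA-Glu genes, 3 of 32 (9.38%, 1.98 to 25.02), and tRNA-Gln genes, 2 of 16 (12.5%, 1.55 to 38.3). These intervals overlap, and 2 of the 3 reproducible tRNA-Cys members lie at a single gene, C37A2.t1. Counted by gene, a reproducible region lay within 500 bp of 2 of 13 tRNA-Cys genes (15.4%) and of 8 of 34 tRNA-Ala genes (23.5%), against 20.4% of all 612, and the highest share was at tRNA-Ser genes, 11 of 39 (28.2%, 15.0 to 44.9). The single tRNA-Sec gene, which carries selenocysteine to a recoded stop codon, had no candidate within 500 bp.

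Members inside and outside promoters of protein-coding genes had similar reproducible shares. The summit lay in a promoter window, 1000 bp upstream to 200 bp downstream of a transcript start, at 107 members, of which 28 were reproducible (26.2%, 18.1 to 35.6), and outside such windows at 333, of which 80 were (24.0%, 19.5 to 29.0). Outside promoter windows 29.2% of the members on X and 20.1% of those on autosomes were reproducible.

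In 13 of the 19 families of 10 or more identical genes that lie on both X and autosomes, the strongest gene was on X, where X held 144 of their 307 genes (46.9%). This was counted after the values were seen, and no test was made.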
